A study of Mus musculus with 4 samples.

Results

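The livers of 2 mice were compared cell by cell: 1 mouse given thioacetamide together with celecoxib at 30 mg/kg, and 1 mouse given thioacetamide alone. The members were every cell barcode of those 2 single-cell RNA libraries with at least 200 genes detected and at most 20% of its unique molecular identifiers (UMIs, 1 per captured RNA molecule) from mitochondrial genes. This kept 12690 of the 24561 such barcodes in the whole series, 6512 from the thioacetamide mouse and 6178 from the celecoxib mouse. All 4 mice of the series were wild-type C57B6 animals of 18 to 20 weeks. Thioacetamide, a hepatotoxin that causes fibrosis, was injected into the peritoneum for 12 weeks, and celecoxib was given by gavage from week 5 of those injections. The other 2 libraries, a mouse given normal saline and a mouse given thioacetamide with celecoxib at 7.5 mg/kg, are set beside the comparison as values. Where 4 values follow each other without labels, their order is saline, thioacetamide alone, thioacetamide with celecoxib 7.5 mg/kg, and thioacetamide with celecoxib 30 mg/kg. There was 1 mouse, 1 library and no replicate per treatment, so a difference between libraries could not be told apart from a difference between 2 mice. No p-value is given. The range in parentheses after a share or a ratio is its exact 95% interval, which covers counting error only. The 2 celecoxib libraries are both set against the same thioacetamide library, so their agreement is not independent. Livers had been dissociated with a commercial kit and most hepatocytes removed by a low-speed spin before the cells were loaded.

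Celecoxib is a selective inhibitor of cyclooxygenase-2, the enzyme encoded by Ptgs2, which turns arachidonic acid into the precursor of prostaglandins and thromboxane. Cyclooxygenase-1, encoded by Ptgs1, makes the same product and is less sensitive to the drug, while 5-lipoxygenase turns arachidonic acid into leukotrienes instead. In a fibrotic liver the scar is laid down by activated stellate cells, and the nonparenchymal fraction also holds resident Kupffer cells, recruited monocytes and macrophages, neutrophils, lymphocytes, sinusoidal endothelium and bile duct cells. Neutrophils load their granules in a fixed order as they mature in the bone marrow: primary granules at the promyelocyte stage, secondary granules at the myelocyte stage, then tertiary granules and secretory vesicles. RNA of secondary granule proteins is therefore a mark of neutrophils that are not yet fully mature.

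Secondary granule genes had the highest median ratio of the 20 gene lists measured in neutrophils, so the promoters of 4 of them are shown. Ngp encodes neutrophilic granule protein, Camp the antimicrobial peptide cathelicidin, Ltf the iron-binding protein lactoferrin and Lcn2 the siderophore-binding protein lipocalin 2. Each sequence runs 5′ to 3′ from 250 bases before to 50 bases after the RefSeq transcription start of build GRCm38.p6, and capitals mark matches to TTGCNNAA, the core of the site bound by C/EBP proteins, searched on both strands and with no other motif searched. C/EBP-epsilon is the factor known to switch on secondary granule genes.
Ngp: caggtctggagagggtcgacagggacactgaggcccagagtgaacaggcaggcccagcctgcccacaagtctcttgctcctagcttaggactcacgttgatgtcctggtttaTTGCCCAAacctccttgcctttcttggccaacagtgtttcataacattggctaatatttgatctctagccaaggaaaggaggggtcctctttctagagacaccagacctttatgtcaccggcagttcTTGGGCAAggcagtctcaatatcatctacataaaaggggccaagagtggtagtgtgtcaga
Camp: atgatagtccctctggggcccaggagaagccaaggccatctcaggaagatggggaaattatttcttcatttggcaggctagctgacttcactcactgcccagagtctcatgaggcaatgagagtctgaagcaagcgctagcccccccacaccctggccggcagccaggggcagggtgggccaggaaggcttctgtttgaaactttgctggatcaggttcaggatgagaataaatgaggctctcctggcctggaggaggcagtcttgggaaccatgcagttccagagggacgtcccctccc
Ltf: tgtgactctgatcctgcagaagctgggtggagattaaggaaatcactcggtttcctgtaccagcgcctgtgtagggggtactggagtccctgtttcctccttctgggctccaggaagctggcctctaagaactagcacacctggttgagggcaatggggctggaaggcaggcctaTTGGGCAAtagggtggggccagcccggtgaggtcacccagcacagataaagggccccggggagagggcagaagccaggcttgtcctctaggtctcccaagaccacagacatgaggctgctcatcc
Lcn2: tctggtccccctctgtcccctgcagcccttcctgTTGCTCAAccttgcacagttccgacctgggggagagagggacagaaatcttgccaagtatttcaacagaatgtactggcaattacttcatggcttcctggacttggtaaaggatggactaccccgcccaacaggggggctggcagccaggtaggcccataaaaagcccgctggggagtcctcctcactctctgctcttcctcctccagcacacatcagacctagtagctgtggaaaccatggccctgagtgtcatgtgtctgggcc
The windows lie at chr9:110419558-110419857 (+ strand), chr9:109849407-109849706 (- strand), chr9:111019042-111019341 (+ strand) and chr2:32387690-32387989 (- strand). The Ngp window held 2 matches, those of Ltf and Lcn2 held 1 each, and Camp held 0 in this window. Of the 14 genes on the secondary granule list, 12 had a promoter in the RefSeq table and 6 of those held the motif, beside 3547 of all 32851 promoters of this length (10.8%). A match is a match of letters and was not tested as a binding site.

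The 2 libraries differed in depth. The thioacetamide library held 47347437 UMIs over 6460 cells kept after removal of predicted doublets, and the celecoxib library 26626414 UMIs over 6062 cells, with median UMIs per cell of 4571 and 3100.5 (3357 and 1967 in the saline and 7.5 mg/kg libraries). Doublet calls took 52 and 116 barcodes, and 13 barcodes were present in both libraries (9 to 14 over all pairs of the 4). Free RNA from lysed cells differed as well. In T cells, which do not make them, 20 hepatocyte genes summed to 411, 108, 38.7 and 30.2 CPM (a gene's UMIs relative to all UMIs of the class, on one scale for all libraries), the neutrophil genes S100a8 and S100a9 to 50.2, 179, 57.3 and 335 CPM, and 4 secondary granule genes to 0.643, 5.26, 9.99 and 51.3 CPM. Neutrophil transcripts in T cells were highest in the celecoxib 30 mg/kg library, and their part in differences of other classes was not tested. The labels give nonparenchymal liver cells, and markers of all the classes below were found. No stellate cell class could be named. A cluster led by fibroblast genes had 0 cells in the thioacetamide library and 7 in the celecoxib library, and a cluster with both endothelial and stellate genes had 67 and 1, so the cells that make scar collagen were not described. Over whole libraries the fibrillar collagen gene Col3a1 had 113 and 391 UMIs, and Col1a1 had 21 and 168.

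Cell classes were named from marker genes, and neutrophils, monocytes, macrophages, T cells and B cells made up most of both libraries. Monocytes were more frequent in the celecoxib mouse, with 608 cells, 9.41% (8.71 to 10.2), against 1166 cells, 19.2% (18.2 to 20.2), 2.04 times (1.85 to 2.26) the share under thioacetamide alone. T cells made up 883 cells, 13.7% (12.8 to 14.5), against 1259 cells, 20.8% (19.8 to 21.8), 1.52 times (1.39 to 1.66) the share. Natural killer and innate lymphoid cells were 1.82 times (1.5 to 2.2) as large a share. Plasmacytoid dendritic cells, the main producers of type I interferon, were 1.6 times (1.28 to 2.01) as large a share. The neutrophil shares differed by less than counting error, at 17.8% and 18.4%, a ratio of 1.04 (0.956 to 1.13).

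Resident and structural cells were scarcer in the celecoxib mouse. Endothelial cells made up 50.8, 3.79, 1.02 and 0.28% of the 4 libraries, which was 245 cells, 3.79% (3.34 to 4.29), against 17 cells, 0.28% (0.163 to 0.449) in the pair compared, 13.5 times lower (8.27 to 23.6) with celecoxib. Kupffer cells, the resident macrophages of the sinusoids, made up 6.64, 2.01, 0.66 and 0.346%, with 130 and 21 cells in the pair, 5.81 times lower (3.65 to 9.7). Recruited macrophages made up 0.529, 9.86, 2.42 and 5.67%, 1.74 times lower (1.52 to 1.99). Cholangiocytes, the lining cells of bile ducts, which multiply in this injury, made up 1.5, 4.64, 2.59 and 1.25%, 3.7 times lower (2.87 to 4.83). B cells made up 15.7, 20.9, 25.8 and 13.1%, 1.6 times lower (1.47 to 1.75). The 2 celecoxib libraries lay on the same side of thioacetamide alone for endothelial cells, Kupffer cells, macrophages, cholangiocytes, T cells, natural killer cells and plasmacytoid dendritic cells. They lay on opposite sides for monocytes and B cells. The same held for neutrophils, 9.85% at 7.5 mg/kg, and type 1 conventional dendritic cells, 1.15%. For both of these the interval of the 30 mg/kg ratio included 1.

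Smaller myeloid classes differed as well. Myeloid progenitors, led by the primary granule genes Elane, Prtn3, Ctsg and Mpo, numbered 1, 3, 7 and 36 cells in the 4 libraries, 12.8 times (4.04 to 64.9) the thioacetamide share at 30 mg/kg. Type 2 conventional dendritic cells made up 1.06, 5.48, 1.89 and 4.57%, and type 1 conventional dendritic cells 0.406, 1.47, 1.15 and 1.72%. Clusters that met no naming rule held 225 and 217 cells, 3.48% and 3.58%. Shares of a library are not independent of each other, and the endothelial share was 50.8% in the saline library. With leukocytes alone as the denominator the monocyte, T cell, macrophage and B cell ratios were 1.88, 1.4, 0.531 and 0.576, in the same directions. Fewer cells of a class in the liver and poorer recovery of that class cannot be told apart.

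**Figure D1:**
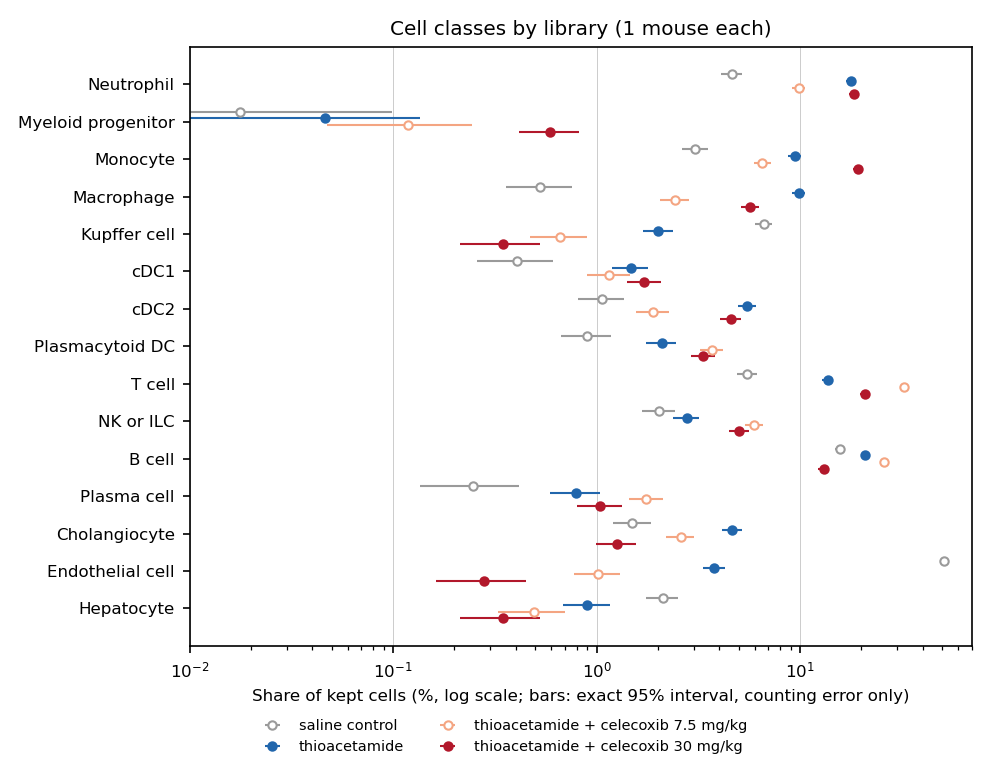
Share of kept cells in each class (horizontal axis, percent, log scale) in the 4 libraries, 1 mouse each; points are shares and bars exact 95% intervals. Filled points are the pair compared: monocytes lie at 9.41% and 19.2%, endothelial cells at 3.79% and 0.28%.

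Gene differences within a class were measured on the summed UMIs of its cells, as CPM of the class total. Fold values are ratios of CPM. A gene counted as different when it was at least 1.5-fold apart after 10 CPM were added to both sides, among genes with at least 30 UMIs over both libraries and 20 CPM in the higher one, and list medians are on that log2 scale. In neutrophils 238 of 4150 genes tested (5.73%) were at least 1.5-fold higher and 1161 (28%) at least 1.5-fold lower. Relative to class totals the median of all neutrophil genes was -0.33. S100a8 and S100a9 alone summed to 104916, 151275, 142894 and 271555 CPM in the 4 libraries, which left fewer CPM to all other genes in the celecoxib 30 mg/kg library. With trimmed-mean scaling, which moved log2 ratios up by 0.43, 641 neutrophil genes were higher and 425 lower, so that the share of differing genes that were higher went from 17.0% to 60.1%. The neutrophil ratios that follow are relative to class totals, and each would be 0.43 higher on the log2 scale with the other scaling.

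Neutrophils of the celecoxib mouse held far more RNA of secondary granule proteins. The list had 12 of 14 measured genes past the threshold upwards and 0 downwards, with a median log2 ratio of 2.11. Ngp (ENSMUSG00000032484, chr9:110419747-110423012, + strand) stood at 809.7, 2540.5, 4524 and 15402 CPM, 6.06-fold higher (5.92 to 6.21) at 30 mg/kg than under thioacetamide alone. Camp (ENSMUSG00000038357, chr9:109847379-109849617, - strand) stood at 408, 1872, 4469 and 13007 CPM, 6.95-fold higher (6.75 to 7.15). Ltf (ENSMUSG00000032496, chr9:111019271-111042767, + strand) had the highest log2 ratio of the class, at 216, 641, 1159 and 4515 CPM, 7.05-fold higher (6.72 to 7.4). Lcn2 (ENSMUSG00000026822, chr2:32384633-32388252, - strand) stood at 1037, 2487, 4099 and 10175 CPM, 4.09-fold higher (3.99 to 4.2). For these genes the order of the libraries was the same: saline lowest, then thioacetamide alone, then 7.5 mg/kg, and 30 mg/kg highest.

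The other members of the list had ratios from 1.31 to 6.25. Cebpe, which encodes C/EBP-epsilon itself, stood at 8.48, 16.9, 24 and 70.0 CPM, 4.14-fold higher (3.03 to 5.75). The chitinase-like gene Chil3 was 6.25-fold higher, the surface glycoprotein gene Cd177 5.46-fold, the integrin gene Itgb2l 5.58-fold, Ifitm6 4.73-fold, the annexin gene Anxa1 3.93-fold, the collagenase gene Mmp8 2.96-fold and the ficolin gene Fcnb 5.54-fold, the last on 12 and 70 UMIs. Cyba, a subunit of the NADPH oxidase, and the haptoglobin gene Hp were 1.31-fold and 1.48-fold higher and did not reach the threshold on the log2 scale with 10 CPM added. Genes of primary granules were near 0 in neutrophils of both libraries: Mpo had 0 and 2 UMIs, Ctsg 0 and 2, and Elane 1 and 4. Cells with high levels of these genes formed the myeloid progenitor class, which was counted apart.

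The share of neutrophils with at least 1 Ngp UMI was 7.32% (5.88 to 8.99) and 41.9% (39 to 44.9) in the thioacetamide and celecoxib libraries. Thinned to 1000 UMIs per cell, which left out 55 and 141 shallower cells, it was 5.49% and 42.4%. In T cells, which lack the gene and serve as the background of free RNA, the shares were 0.34% (0.0701 to 0.99) and 4.69% (3.59 to 6.0), and 0.116% and 1.45% thinned. Median UMIs were 2342 and 1846 per neutrophil and 4927 and 2777 per T cell. The background was itself higher in the celecoxib library, and the neutrophil shares lay above it in both.

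**Figure D2:**
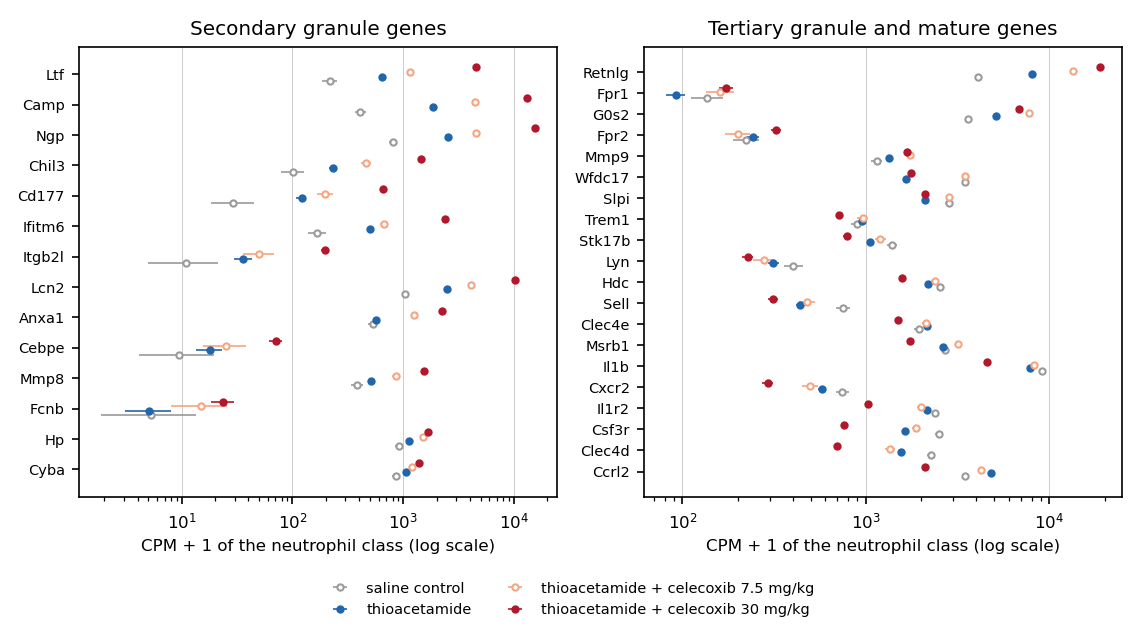
CPM plus 1 of the neutrophil class (horizontal axis, log scale) for secondary granule genes (left) and tertiary granule and mature neutrophil genes (right) in the 4 libraries; bars are exact 95% counting intervals. Filled red points (30 mg/kg) lie to the right of filled blue points (thioacetamide alone) for all 14 genes on the left, Ltf at 4515 against 641 CPM, and on either side of them on the right.

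The neutrophils fell into 2 clusters, and their mix differed. Cluster 25, led by the granule genes, held 0.382, 4.88, 8.93 and 37.7% of the neutrophils in the 4 libraries, 56 and 422 cells in the pair compared, a ratio of 7.73 (5.84 to 10.4). When the neutrophils were clustered again without the 50 genes that led this cluster, the matching group held 4.71% and 36.3%, a ratio of 7.71. Within cluster 25, 0 of 14 secondary granule genes were at least 1.5-fold higher, with a median log2 ratio of 0.29, and Ngp had a ratio of 1.19 (1.16 to 1.22). Of all genes tested in that cluster, 6.21% were higher and 9.36% lower. Within cluster 2, the mature cluster led by Acod1, Clec4d and Csf3r, 7 of 11 were higher with a median of 0.83, beside 2.03% higher and 6.97% lower of all 4192 genes tested in it. There Ngp was at 18.2 and 187 CPM and Camp at 2.32 and 145 CPM, beside sums of 4 granule genes of 6.67, 49.1, 45.6 and 236 CPM in monocytes, and the part of free RNA was not tested. With both clusters weighted alike in the 2 libraries the median of the list was 0.31, and the log2 ratios were 0.27 for Ngp, 0.46 for Camp, 0.50 for Ltf and 0.30 for Lcn2, all under the threshold of 0.58. Cells had been placed in these clusters partly by the granule genes themselves, so the levels within them are a description. A further cluster of cycling cells led by Camp, Ngp and Ltf, which met no naming rule, numbered 0, 2, 2 and 12 cells.

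Of the genes of tertiary granules and of mature neutrophils, 2 of 20 measured were past the threshold upwards and 6 downwards, shares near the 5.73% and 28% of all neutrophil genes. Retnlg, a resistin-like gene, stood at 4059.8, 8059, 13504 and 18796 CPM, 2.33-fold higher (2.3 to 2.37). The formyl peptide receptor gene Fpr1 was 1.89-fold higher. Ccrl2, an atypical chemokine receptor gene, stood at 3471, 4836, 4248 and 2088 CPM, 2.32-fold lower (2.25 to 2.39). The receptor genes Csf3r (for the growth factor G-CSF) and Cxcr2 (for CXC chemokines that draw neutrophils out of the marrow) were 2.16-fold and 1.98-fold lower. Within cluster 2 the ratio of Csf3r was 0.945 (0.896 to 0.997), of Cxcr2 0.745 (0.673 to 0.823) and of Ccrl2 0.889 (0.862 to 0.917).

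Interferon-induced genes were lower in neutrophils of the celecoxib mouse. The type I interferon list had 0 of 18 measured genes past the threshold upwards and 13 downwards, with a median of -0.82. Rsad2, which encodes the antiviral enzyme viperin, stood at 225, 620.4, 211 and 184 CPM, 3.38-fold lower (3.07 to 3.72). Isg15, a ubiquitin-like modifier, stood at 112, 803, 342 and 286 CPM, 2.8-fold lower (2.6 to 3.03). Oasl1 was 3.23-fold lower and Ifit1 2.81-fold lower. Here the thioacetamide library was the highest of the 4. Within cluster 2 alone, Rsad2 stood at 691 and 364 CPM and Isg15 at 900.2 and 512 CPM, and 6 of 20 members were lower with a median of -0.39, beside 2.03% higher and 6.97% lower of all 4192 genes tested in it.

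Inflammatory cytokine genes and targets of the transcription factor NF-kB were lower over all neutrophils, while their median was above 0 within each cluster. The list had 1 of 20 measured genes past the threshold upwards and 12 downwards, with a median of -0.70. Icam1, an adhesion molecule gene, stood at 195, 281, 227 and 85.4 CPM, 3.29-fold lower (2.86 to 3.79), and Tnfaip2 at 2382, 2274, 1433 and 743 CPM, 3.06-fold lower (2.92 to 3.21). Osm, a cytokine of the interleukin-6 family, was 1.54-fold higher. Within cluster 2 the median was 0.10 and within cluster 25 0.28, and with both clusters weighted alike in the 2 libraries it was 0.16. With the cluster mix held equal, then, the direction of the list was the reverse of that over all neutrophils. Tnfaip2 and Icam1 were lower within cluster 2 as well, with ratios of 0.714 (0.679 to 0.75) and 0.70 (0.605 to 0.807). The lowest log2 ratios of the class by the naming rule were Clec4n, a C-type lectin receptor gene, at 126, 228, 109.7 and 58.1 CPM, and the cyclin gene Ccnd2 at 55.1, 87.5, 31.5 and 19.9 CPM. With the clusters weighted alike their log2 ratios were -0.67 and -0.88.

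The target gene of celecoxib was also lower over all neutrophils and not within its clusters. Ptgs2 (ENSMUSG00000032487, chr1:150100031-150108227, + strand) stood at 1969.9, 1243, 1472 and 758 CPM in neutrophils, 1.64-fold lower (1.56 to 1.73) with celecoxib than without. Within mature cluster 2 it was at 1386 and 1635 CPM, a ratio of 1.18 (1.11 to 1.25), and within cluster 25, where it was several times less abundant, at 251 and 262 CPM. Held to equal cluster weights, the log2 ratio over neutrophils was 0.22 in place of -0.71. RNA levels of Ptgs2 do not measure the activity of the enzyme that celecoxib inhibits.

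Ptgs2 stood at 168, 149.7, 95.2 and 166 CPM in monocytes, a ratio of 1.11 (1.01 to 1.22). In macrophages it was at 287, 276, 142 and 191 CPM, a ratio of 0.694 (0.626 to 0.767), with 0.941 (0.824 to 1.07) in cluster 13.2 and 2.68 (1.9 to 3.85) in cluster 13.3. Ptgs1 (ENSMUSG00000047250, chr2:36230426-36252272, + strand) stood at 223, 216, 219 and 212 CPM in macrophages, with a ratio of 0.984 (0.89 to 1.09), and at 632, 648, 828 and 558 CPM in Kupffer cells, with a ratio of 0.861 (0.65 to 1.12). Both intervals for Ptgs1, the isoform that celecoxib spares, included 1. In type 2 dendritic cells Tbxas1, the thromboxane synthase gene, was at 14.8, 66.6, 45.3 and 34.3 CPM, 1.94-fold lower (1.46 to 2.61). Hpgd, which encodes the enzyme that degrades prostaglandins, was at 32.8, 31.2, 124 and 62.3 CPM in the same cells, 2.0-fold higher (1.53 to 2.6). The prostaglandin E2 receptor gene Ptger4 had ratios of 1.08 (0.929 to 1.25) in T cells, 0.976 (0.826 to 1.15) in macrophages and 1.21 (1.05 to 1.38) in type 2 dendritic cells.

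On the leukotriene branch, 2 of 5 measured genes were at least 1.5-fold higher in neutrophils. Lta4h, the hydrolase that makes leukotriene B4, stood at 31.1, 38.9, 54.2 and 108 CPM, 2.78-fold higher (2.25 to 3.47). Ltb4r1, the receptor for leukotriene B4, stood at 50.9, 70.6, 99.6 and 181 CPM, 2.56-fold higher (2.18 to 3.01). Alox5ap, which encodes the protein that hands arachidonic acid to 5-lipoxygenase, had ratios of 1.25 (1.19 to 1.3) in neutrophils and 1.33 (1.28 to 1.38) in monocytes, and Alox5 a ratio of 1.11 (0.939 to 1.31) in neutrophils. Within cluster 25 the ratio of Lta4h was 0.938 (0.716 to 1.25) and that of Ltb4r1 1.25 (0.976 to 1.61). In cluster 2 Ltb4r1 was at 51.8 and 55.1 CPM, and in cluster 25 at 202 and 252 CPM. The part of the cluster mix in its level over all neutrophils was not tested.

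Monocytes of the celecoxib mouse held less RNA of non-classical monocyte genes, and non-classical cells were a smaller share of the class. In this class 102 of 5737 genes tested (1.78%) were at least 1.5-fold higher and 233 (4.06%) at least 1.5-fold lower, and 165 and 172 with trimmed-mean scaling, so that the share that were higher went from 30.4% to 49.0%. Non-classical monocytes patrol the vessel wall, and their list had 0 of 12 measured genes past the threshold upwards and 10 downwards, with a median of -1.14. Ace, the angiotensin-converting enzyme gene, stood at 425, 216, 220.4 and 88 CPM, 2.45-fold lower (2.22 to 2.72). Eno3, an enolase gene, stood at 129, 92.1, 93.9 and 27.2 CPM, 3.38-fold lower (2.84 to 4.03), and Pglyrp1 and Cd300e were 3.07-fold and 3.32-fold lower. Cluster 20, the non-classical cluster, held 53.8, 23.7, 29.3 and 7.98% of the monocytes, a ratio of 0.337 (0.257 to 0.44). As a share of all kept cells it differed less, at 2.23% and 1.53%, a ratio of 0.688 (0.524 to 0.899). The classical cluster 14 stood at 7.06% and 16.8% of all kept cells. Clustered again without its 50 leading genes, the matching group held 22.7% and 7.29%, a ratio of 0.321. Within cluster 20 the list had a median of -0.06 and 0 members past the threshold, and Ace a ratio of 1.07 (0.936 to 1.22). Of all genes tested in that cluster, 5.21% were higher and 8.23% lower. With clusters 14 and 20 weighted alike in the 2 libraries the median of the list was -0.21, and the log2 ratio of Ace was -0.08.

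Classical monocyte genes went both ways. F13a1, the coagulation factor XIII gene, stood at 465, 275, 335 and 513 CPM, 1.87-fold higher (1.75 to 1.99), while Ly6c2, the surface marker of inflammatory monocytes, stood at 501, 1661, 742 and 1057 CPM, 1.57-fold lower (1.52 to 1.62). Both held within the classical cluster 14, with ratios of 1.55 (1.45 to 1.66) and 0.501 (0.484 to 0.518). Ccl2, a chemokine gene whose product draws more monocytes in, stood at 82, 108, 117 and 215 CPM, 2.0-fold higher (1.81 to 2.21), and Cxcl2, whose product draws neutrophils, at 413, 825, 696 and 1519.5 CPM, 1.84-fold higher (1.78 to 1.91). The inflammatory list had 7 of 20 measured genes past the threshold upwards and 0 downwards, with a median of 0.08. By the naming rule the collagenase gene Mmp8 (60.1, 55.1, 87.4 and 150.1 CPM) and the heat shock gene Hspa1b (788, 244, 604 and 585 CPM) had the highest log2 ratios. The fatty acid carrier gene Fabp4 (140.2, 103, 121 and 18.2 CPM) and the ion cotransporter gene Slc12a2 (85.8, 93.1, 82.8 and 16.6 CPM) had the lowest. With clusters 14 and 20 weighted alike their log2 ratios were -0.72 and -0.61. Within cluster 20 their ratios were 0.495 (0.389 to 0.624) and 0.583 (0.46 to 0.732). Ngp, Camp, Ltf and Lcn2, the secondary granule genes summed for T cells above, came to 6.67, 49.1, 45.6 and 236 CPM in monocytes. Mmp8 is not among them, and the part of free RNA in the Mmp8 ratio was not tested.

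Interferon and antigen presentation genes were lower in classical monocytes. The type I interferon list had 0 of 21 measured genes past the threshold upwards and 9 downwards over all monocytes (median -0.47), and 13 of 21 lower within cluster 14 (median -0.64), beside 1.24% higher and 3.09% lower of all 5631 genes tested in it. Irf7, the factor that amplifies interferon production, stood at 125, 413, 240.0 and 205 CPM, 2.02-fold lower (1.88 to 2.16). Of the class II antigen presentation list, 5 of 12 were lower and 0 higher. H2-Aa, a class II chain gene, stood at 956, 1607, 882 and 742 CPM, 2.17-fold lower (2.09 to 2.24), and Cd74, the class II chaperone gene, at 2924, 4218, 2671 and 2068 CPM, 2.04-fold lower (2.0 to 2.08). Within cluster 14 the H2-Aa ratio was 0.419 (0.404 to 0.435), and within the non-classical cluster 20 it was 1.02 (0.88 to 1.19). For class II genes the direction seen in cluster 14 was not seen in cluster 20, where the median of their list was 0.08. The interferon list had a median of -0.35 in cluster 20, beside -0.02 for all genes tested in it. Of its 14 measured members there, 0 were past the threshold upwards and 1 downwards, beside 5.21% and 8.23% of all genes.

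Cycling genes were higher in monocytes, with 7 of 11 measured genes past the threshold upwards and 0 downwards and a median of 0.69. Mki67, a marker of dividing cells, stood at 0, 21.7, 12.4 and 46 CPM, 2.12-fold higher (1.69 to 2.68). Ccnb2, a mitotic cyclin gene, stood at 0, 14, 6.52 and 43.6 CPM, 3.11-fold higher (2.37 to 4.12), and Ube2c, which drives exit from mitosis, at 5.72, 35.1, 16.3 and 80.1 CPM, 2.28-fold higher (1.92 to 2.73). A cycling cluster (24.3) held 0, 1.32, 0.518 and 4.8% of the monocytes, 8 cells in the thioacetamide library and 56 in the celecoxib library. Clustered without its 50 leading genes, no such group was found. The share of monocytes with an Mki67 UMI was 3.78% (2.41 to 5.62) and 7.63% (6.17 to 9.31). After thinning to 1000 UMIs it was 1.28% (0.514 to 2.61) and 2.36% (1.55 to 3.43), with overlapping intervals. In B cells, which mostly do not divide, the unthinned share was 0.296% (0.0807 to 0.756) and 0.505% (0.138 to 1.29). For Top2a the unthinned intervals overlapped in monocytes, at 4.61% (3.08 to 6.59) and 5.66% (4.40 to 7.15).

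In the macrophage class the genes of the scar-associated state, which is known from fibrotic liver, were mostly within the threshold. They differed between the clusters of the class. In this class 68 of 5859 genes tested (1.16%) were at least 1.5-fold higher and 141 (2.41%) at least 1.5-fold lower, and the scar-associated list had 1 of 18 measured genes past the threshold upwards and 1 downwards with a median of 0.05. Trem2, the lipid receptor gene that marks these cells, stood at 64.4, 676, 760.5 and 853 CPM, a ratio of 1.26 (1.2 to 1.33). Gpnmb, a lysosomal glycoprotein gene, stood at 0, 666, 589 and 558 CPM, a ratio of 0.839 (0.789 to 0.891), and Spp1, the osteopontin gene, at 178, 368, 112 and 459 CPM, a ratio of 1.25 (1.16 to 1.34). The tetraspanin gene Cd9 passed the threshold at 233, 311, 341 and 488 CPM, 1.57-fold higher (1.46 to 1.68), and Fabp4 was lower on 263 and 19 UMIs. Within cluster 13.1, led by Mmp12, Gpnmb and Lpl, 6 of 18 of the list were lower and 0 higher (median -0.43), beside 4.8% higher and 7.55% lower of all 5420 genes tested in it. Within cluster 13.3, 3 of 17 were higher and 0 lower (median 0.19), beside 4.5% higher and 3.97% lower of all 5137 genes tested in it. Cluster 13.1 held 10.8% and 21.2% of the class and cluster 13.3 10.2% and 39.8%. The class held 637 and 344 cells, with median UMIs per cell of 12763 and 6470.

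Among inflammatory genes of macrophages 6 of 22 were lower and 0 higher. Il10, an anti-inflammatory cytokine gene, stood at 4.95, 58.7, 55.3 and 19 CPM, 3.1-fold lower (2.28 to 4.3), and Tnfaip2 at 495, 308, 141 and 125 CPM, 2.46-fold lower (2.18 to 2.79). Il1b, the interleukin-1 beta gene, stood at 1876, 2473, 2165 and 1619 CPM, 1.53-fold lower (1.48 to 1.58). The class was a different mix in the 2 libraries: cluster 13.2 held 20, 52.4, 21 and 23% of its cells, a ratio of 0.438 (0.338 to 0.561), and reclustering without the 50 leading genes gave 53.5% and 29.4%, a ratio of 0.548. The inflammatory list differed between clusters. Cluster 13.2 had 4 of 22 higher and 2 lower (median 0.22), beside 4.07% higher and 5% lower of all genes tested in it. Cluster 13.3 had 8 of 20 higher and 1 lower (median 0.54), beside 4.5% and 3.97% of all genes. Cluster 13.1 had 3 of 20 higher and 4 lower, beside 4.8% and 7.55% of all genes. Within cluster 13.2 the Il10 ratio was 0.636 (0.401 to 0.966).

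**Figure D3:**
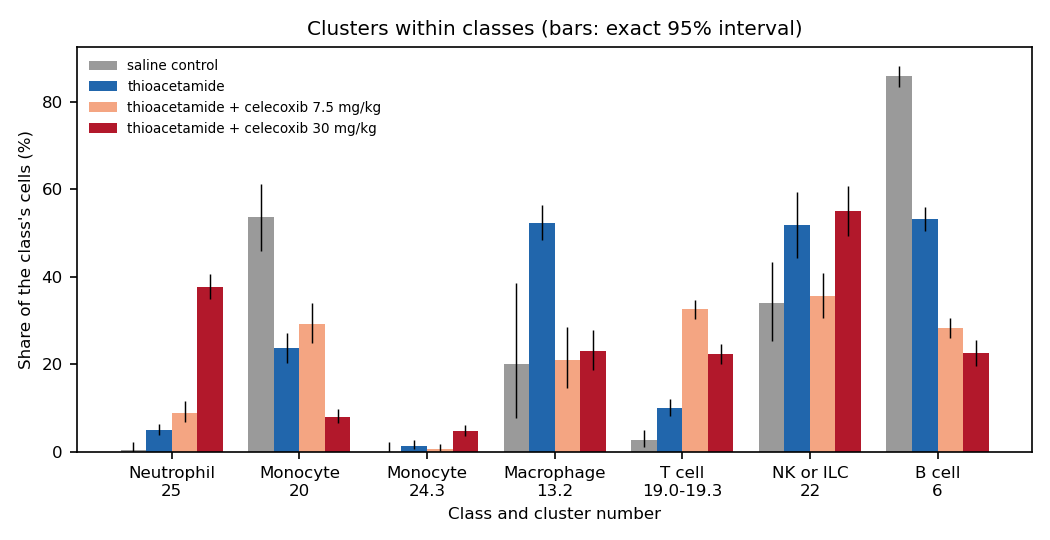
Share of each class's cells held by single clusters (vertical axis, percent) in the 4 libraries, with exact 95% intervals. Cluster 25 held 4.88% of neutrophils under thioacetamide alone and 37.7% with celecoxib 30 mg/kg, and cluster 6 held 53.3% and 22.5% of B cells.

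T cells of the celecoxib mouse held more RNA of Pdcd1, Tox and Lag3 over the whole class, and some effector genes were higher too. In this class 68 of 5751 genes tested (1.18%) were at least 1.5-fold higher and 55 (0.956%) at least 1.5-fold lower. Pdcd1, the gene of the checkpoint receptor PD-1, stood at 13.5, 46.1, 177 and 118 CPM, 2.55-fold higher (2.17 to 3.01). With the 8 of 11 clusters that had at least 10 cells in both libraries weighted alike, its log2 ratio was 0.42, under the threshold. That value leaves out clusters 19.2 and 19.3, with 0 and 7 cells under thioacetamide alone and 67 and 126 with celecoxib. Tox, a factor of chronically stimulated CD8 T cells, stood at 102, 81.9, 234 and 173 CPM, 2.11-fold higher (1.86 to 2.39), and the checkpoint gene Lag3 was 2.3-fold higher on 76 and 145 UMIs. For Pdcd1, Tox and Lag3 the 2 celecoxib libraries both lay above the other 2, with 7.5 mg/kg the highest. The list of exhaustion and regulation genes had 3 of 11 measured genes past the threshold upwards and 1 downwards, the lower one being Tnfrsf4, which encodes the costimulatory receptor OX40. Effector genes gave 5 of 17 higher, among them the granzyme A gene Gzma at 208, 452, 463 and 923 CPM, 2.04-fold higher (1.93 to 2.15), and the chemokine genes Ccl3 (2.92-fold) and Ccl4 (1.89-fold). S1pr1, the receptor that lets T cells leave tissue, stood at 524, 389.6, 248 and 241 CPM, 1.62-fold lower (1.5 to 1.75). Abcb1b, a drug efflux pump gene, and Rnf157 had the lowest log2 ratios by the naming rule, with Abcb1b at 45.7, 103, 59.1 and 48 CPM and Rnf157 at 30.9, 70.7, 67.6 and 32.7 CPM.

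The mix of T cells differed too. The 4 T cell clusters numbered 19 each had Cd8a, Ccl5 and Tox among their leading genes. Together they held 2.56, 9.97, 32.5 and 22.3% of T cells, a ratio of 2.24 (1.76 to 2.88). Clustered without their 50 leading genes, the matching group held 5.66% and 22.1%, a ratio of 3.9. The largest of them under thioacetamide alone went the other way, with 70 and 31 cells, 7.93% and 2.46% of T cells. The others held 11, 0 and 7 cells under thioacetamide alone and 57, 67 and 126 with celecoxib. Median UMIs per cell over all libraries were 3635 in the former and 2062, 1878.5 and 1943 in the others. The part of library and depth in these clusters was not tested. Within cluster 0, led by Icos and Il17a, Pdcd1 had a ratio of 1.01 (0.693 to 1.47) and Tox 1.22 (0.91 to 1.62). Cluster 10.2 had a Pdcd1 ratio of 2.63 (1.17 to 5.66) on 20 and 12 UMIs. Gzma, higher over all T cells, had a ratio of 0.526 (0.484 to 0.572) within cluster 10.4, where 7 of 18 effector genes were lower and 1 higher, beside 5.6% higher and 11.5% lower of all 3158 genes tested in it. Within cluster 0, 3 of 13 effector genes were lower and 0 higher. The share of T cells with a Pdcd1 UMI was 11% (9.0 to 13.2) and 18.3% (16.2 to 20.5), and 4.63% and 11.5% thinned to 1000 UMIs, beside 0.148% (0.0179 to 0.534) and 0.126% (0.0032 to 0.701) in B cells, which lack it. S1pr1 was lower within cluster 7, with a ratio of 0.542 (0.486 to 0.604). Interferon genes were lower within cluster 0, 8 of 15 measured members with a median of -0.70, beside 3.05% higher and 4.42% lower of all 6060 genes tested in it. The median was -0.25 over all T cells, -0.27 in cluster 7, 0.08 in cluster 10.2, -0.21 in cluster 10.3 and -0.06 in cluster 10.4.

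The chemokine genes Ccl3 and Ccl4 and the cytokine gene Ifng were higher in natural killer and innate lymphoid cells. In this class 170 of 6027 genes tested (2.82%) were at least 1.5-fold higher and 315 (5.23%) at least 1.5-fold lower, and 259 and 206 with trimmed-mean scaling, so that the share that were higher went from 35.1% to 55.7%. Ccl3 stood at 712, 227, 1322 and 819.7 CPM, 3.6-fold higher (3.1 to 4.21), and Ccl4 at 2848, 1048, 3045 and 2168 CPM, 2.07-fold higher (1.92 to 2.23). Ifng, the interferon-gamma gene, stood at 344, 204, 576 and 457 CPM, 2.24-fold higher (1.89 to 2.67). For Ccl3, Ccl4 and Ifng the thioacetamide library was the lowest of the 4. Ccl3 and Ifng were higher within both clusters, with Ifng ratios of 2.39 (1.8 to 3.19) in cluster 3 and 2.09 (1.68 to 2.62) in cluster 22. Eomes, a factor of mature natural killer cells, stood at 346, 247, 335 and 151 CPM, 1.64-fold lower (1.32 to 2.03). Cell cycle genes gave 5 of 10 lower. The lowest log2 ratios by the naming rule were those of Pclaf, a replication gene with 54 UMIs under thioacetamide alone and 3 with celecoxib, a ratio of 0.0575 (0.0115 to 0.177), and Stmn1, a tubulin-binding protein gene at 34.6, 143, 66.9 and 50.3 CPM. Cluster 22 held 52.0% and 55.1% of the class.

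B cells differed in immediate early genes, which signal recent stimulation and also respond to tissue digestion. In this class 96 of 5712 genes tested (1.68%) were at least 1.5-fold higher and 66 (1.16%) at least 1.5-fold lower, and of the immediate early list 9 of 16 were higher and 0 lower. Jun, a subunit of the factor AP-1, stood at 414, 241, 339 and 575 CPM, 2.38-fold higher (2.18 to 2.6), and its partner gene Fos at 493, 177, 197 and 344 CPM, 1.95-fold higher (1.75 to 2.17). Cd83, an activation marker, stood at 978, 551, 812 and 913 CPM, 1.66-fold higher (1.55 to 1.77), and Myc, the growth regulator, was 1.77-fold higher. In Jun, Fos, Cd83 and Myc the thioacetamide library was the lowest of the 4. Ccnd2 stood at 61, 99, 29.9 and 28.8 CPM, 3.44-fold lower (2.52 to 4.79), and Asph, a hydroxylase gene, at 31.2, 71.5, 47.3 and 30.8 CPM, 2.32-fold lower (1.71 to 3.22). Cluster 6 held 86, 53.3, 28.2 and 22.5% of B cells, a ratio of 0.422 (0.356 to 0.498), and 72.6% and 17.3%, a ratio of 0.238, when clustered without its 50 leading genes. The part of library and depth in the B cell clusters was not tested. Jun had ratios of 1.44 (1.19 to 1.74) within cluster 6 and 2.38 (2.08 to 2.74) within cluster 12.

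Dendritic cells had lower levels of cell cycle genes with celecoxib. In type 2 conventional dendritic cells 147 of 5607 genes tested (2.62%) were at least 1.5-fold higher and 188 (3.35%) at least 1.5-fold lower, and of the cell cycle list 14 of 19 were lower and 0 higher, with a median of -0.90. Birc5, the survivin gene, stood at 0, 75.6, 15.7 and 15.7 CPM, 4.81-fold lower (3.24 to 7.41). Ube2c was 4.18-fold lower and Ccnb2 7.76-fold lower. With the 4 of 5 clusters that had at least 10 cells in both libraries weighted alike, the median was -0.23. The log2 ratio of Birc5 was then -0.42. The cluster left out was the cycling one (24.4), of 0, 31, 4 and 9 cells, so both values lack its cells. In type 1 cells, which present antigen to CD8 T cells, 198 of 5569 genes tested (3.56%) were at least 1.5-fold higher and 297 (5.33%) at least 1.5-fold lower, and 16 of 21 cell cycle genes were lower with a median of -0.84. The cycling cluster of that class (24.1) numbered 6, 15, 5 and 4 cells, 15.8% and 3.85% of the class in the pair compared. Mki67 stood at 315, 157, 113 and 39.3 CPM in type 1 cells, 3.99-fold lower (2.8 to 5.85), from 95 and 104 cells. Mgl2, a lectin gene of type 2 cells, stood at 49.2, 145, 57.5 and 34.9 CPM in them, 4.15-fold lower (3.18 to 5.51).

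Plasmacytoid dendritic cells had 10 of 13 heat shock genes higher and 0 lower. In this class 194 of 6354 genes tested (3.05%) were at least 1.5-fold higher and 248 (3.9%) at least 1.5-fold lower. The naming rule gave Hspa1a and Hspa1b as the highest, and as the lowest Aif1, a macrophage-associated gene at 53.6, 86.5, 18.5 and 18.8 CPM, and Zfhx3, a transcription factor gene at 61, 63.1, 31.2 and 21.8 CPM. The type I interferon list had 0 of 17 measured genes past the threshold upwards and 2 downwards. In the 51 and 63 plasma cells, the antibody-secreting cells, 103 of 3517 genes tested (2.93%) were at least 1.5-fold higher and 450 (12.8%) at least 1.5-fold lower. These counts are relative to class totals, where the median log2 ratio of all plasma cell genes was -0.20. Trimmed-mean scaling would move their log2 ratios up by 0.24. The secondary granule list was higher there too, 6 of 7 measured genes, in cells that do not make those proteins, beside the free RNA values above.

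Cholangiocytes were few with celecoxib, 300 and 76 cells, and their genes went opposite ways in 2 lists. In this class 298 of 7702 genes tested (3.87%) were at least 1.5-fold higher and 358 (4.65%) at least 1.5-fold lower. Of the cell cycle list 10 of 20 were higher and 0 lower, with Top2a, the topoisomerase of dividing cells, at 3.62, 31.3, 29 and 73.4 CPM, 2.35-fold higher (1.7 to 3.21), and Mki67 at 2.71, 43.4, 37 and 70.7 CPM, 1.63-fold higher (1.18 to 2.21). Of the immediate early list 13 of 18 were lower, with Egr1 at 2030.5, 2565, 2299 and 1026 CPM, 2.5-fold lower (2.32 to 2.69), and the stress factor gene Atf3 at 679, 1557, 2255 and 625 CPM, 2.49-fold lower (2.27 to 2.74). Cluster 26 of this class held 0, 0, 18 and 14 cells in the 4 libraries. Within the main cluster 21, of 300 and 62 cells, the cell cycle median was 0.74 and Mki67 had a ratio of 1.85 (1.35 to 2.51).

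**Figure D4:**
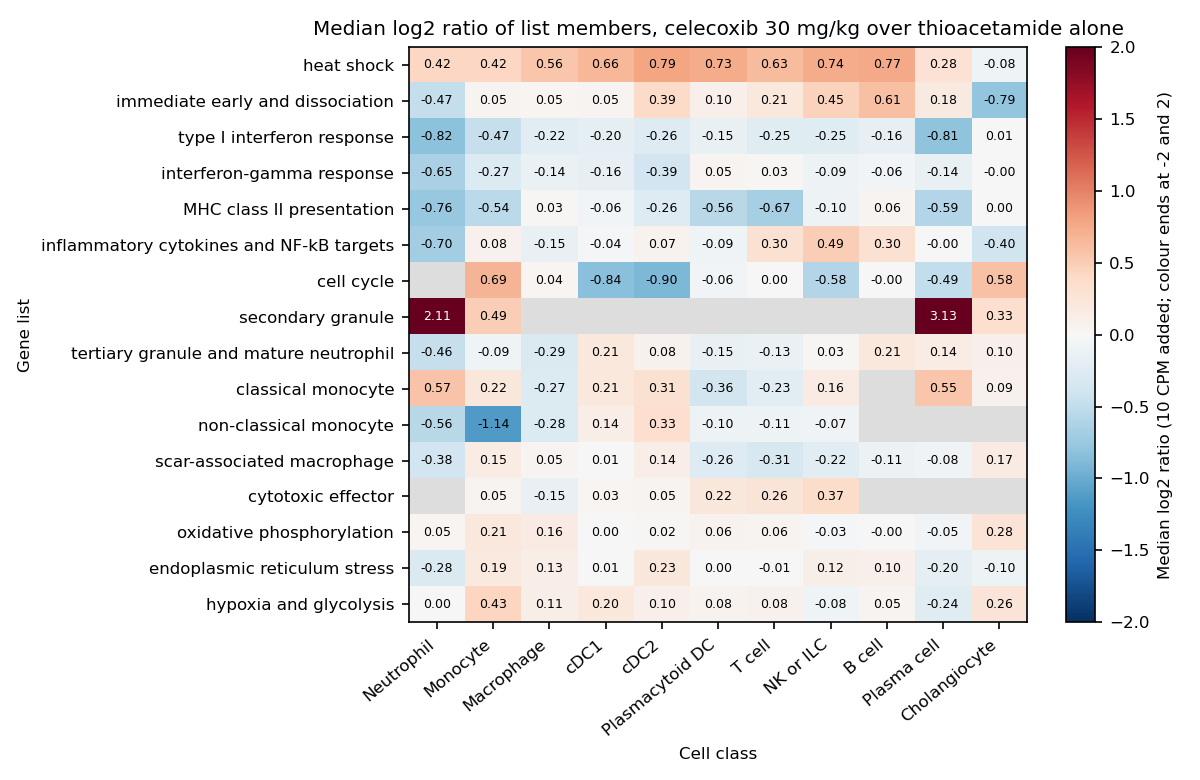
Median log2 ratio (celecoxib 30 mg/kg over thioacetamide alone, 10 CPM added) of gene lists (rows) in cell classes (columns); grey marks lists with too few measured members, and colours end at -2 and 2. The heat shock row is above 0 in 10 of 11 classes, the type I interferon row is lowest in neutrophils at -0.82, and the cell cycle row is 0.69 in monocytes and -0.90 in type 2 dendritic cells.

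Heat shock genes, which encode chaperones and rise with stress of living cells and of tissue handling, were higher in nearly all classes. Medians of the list ran from 0.28 in plasma cells to 0.79 in type 2 dendritic cells, with cholangiocytes at -0.08. Members at least 1.5-fold higher numbered 7 of 12 in B cells, 7 of 13 in T cells, 9 of 14 in type 2 dendritic cells and 3 of 13 in monocytes. Hspa1a (ENSMUSG00000091971, chr17:34969190-34972156, - strand), an inducible HSP70 gene, stood at 360.3, 130.1, 550.0 and 746 CPM in T cells, 5.74-fold higher (5.26 to 6.27). In B cells it stood at 259.7, 71.5, 308 and 471 CPM, 6.59-fold higher (5.8 to 7.51), and in macrophages at 1198, 526, 984 and 1516 CPM, 2.88-fold higher (2.76 to 3.01). Its neighbour Hspa1b (ENSMUSG00000090877, chr17:34956436-34959238, - strand) is nearly identical in sequence, so the division of UMIs between the 2 genes is uncertain. Over the 10 classes with 4 libraries compared, the thioacetamide library was the lowest of the 4 in 10 for both genes, while the celecoxib 30 mg/kg library was the highest in 9 for Hspa1a and in 4 for Hspa1b. The saline mouse, which had neither agent, thus lay above thioacetamide alone in those classes. A B cell cluster (16) with Hspa1b among its leading genes numbered 79, 38, 101 and 88 cells, and a type 2 dendritic cell cluster (8.4) with Hspa1a among its leading genes held 7.63% and 46.2% of its class. With clusters weighted alike in both libraries the log2 ratio of Hspa1a went from 2.56 to 1.02 in B cells and from 1.76 to 0.85 in type 2 dendritic cells, where Hspa1b went to 1.06. In T cells it was 2.26 with equal weights. The part of handling time in these values was not tested.

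A few genes differed the same way in every one of the 8 larger classes in which they were measured. Of 5467 genes measured in at least 4 of the 8 larger classes, 6 were at least 1.5-fold higher in all of them, among them Atp5g2, Hsph1, Hspa1a, Hspa1b and Slc15a2, and 2 were lower, Clu and Creb5. Slc15a2 (ENSMUSG00000022899, chr16:36750177-36784962, - strand), a peptide transporter gene, stood at 98, 0.201, 84.6 and 66.7 CPM in B cells, which was 286, 1, 209 and 102 UMIs. In T cells it had 123, 0, 174 and 108 UMIs, so it was at least 43.4-fold higher with celecoxib than the 0.631 CPM that a count of 0 (3 UMIs in the class) allows. In monocytes it had 32, 0, 40 and 115 UMIs and in neutrophils 38, 0, 29 and 78. Cholangiocytes were the only class of the 11 with more than 1 such UMI in the thioacetamide mouse, with 46, 185, 63 and 48 UMIs, 41.6, 34, 45.7 and 65.2 CPM. In the immune classes the thioacetamide mouse thus stood apart from the other 3. Clu, a clusterin gene made in large amounts by cholangiocytes, stood at 2463 and 598 CPM over the whole libraries, and its part as free RNA in the other classes was not tested.

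For Isg15, thioacetamide alone was the highest of the 4 libraries in 10 of 10 classes, with ratios of celecoxib 30 mg/kg to thioacetamide alone from 0.357 to 0.910. It stood at 62.9, 304, 161 and 158 CPM in monocytes and 34.1, 107, 79.3 and 77.7 CPM in T cells. Irf7 was highest under thioacetamide alone in 7 of 10 classes and Ifit3 in 8 of 10. With 1 mouse per treatment these orders describe 4 animals.

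**Figure D5:**
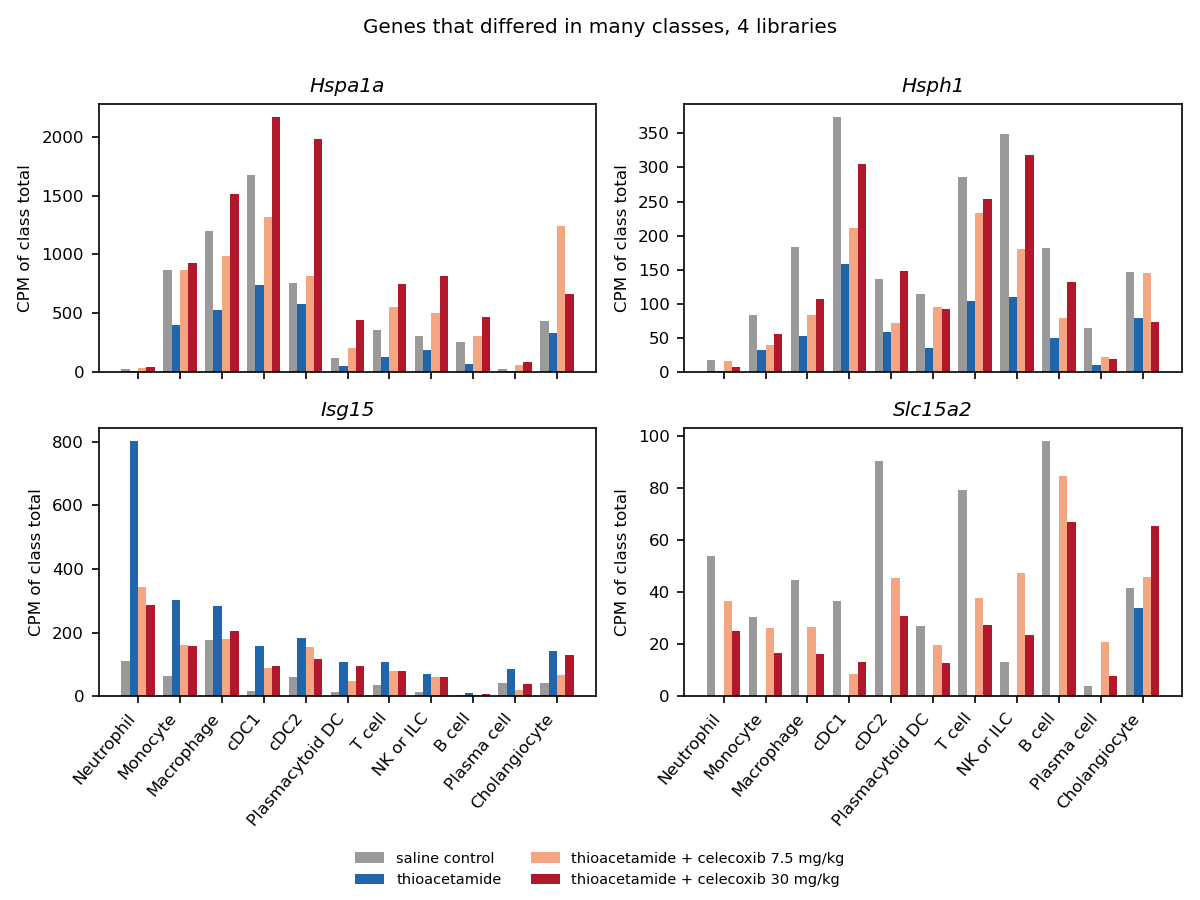
CPM of the class total (vertical axes, from 0) for Hspa1a, Hsph1, Isg15 and Slc15a2 in 11 classes and 4 libraries; bars are single values with no replicate. Thioacetamide alone (blue) is the lowest of the 4 for Hspa1a and the highest for Isg15 in each of the 11 classes, and its Slc15a2 bar is visible only in cholangiocytes.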

How the data were processed

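Per the labels' protocols, nonparenchymal liver cells were run as 10x single-cell libraries, 1 per mouse. Reads were processed by the authors with Cell Ranger 3.1.0 against build mm10, per the submitters' processing notes, and the deposited values are UMI counts per gene and barcode. Barcodes with at least 200 genes and at most 20% mitochondrial UMIs were kept, and Scrublet calls (expected 5%) were removed. Cells of the 4 libraries were normalized and clustered together (Leiden, resolution 1, scanpy 1.11.5, leidenalg 0.10.2), with no correction for library. Clusters were named from fixed markers, by thresholds set after seeing the data (3 markers at 2-fold, second class under 0.75 of the best score). UMIs were summed per library and class and given as CPM. Log2 ratios have 10 CPM added. Median UMIs per cell ran from 1967 to 4571, and intervals (scipy 1.17.1) are exact binomial or Poisson 95% intervals. A count of 0 allows 3 UMIs. No test between treatments was made, since each had 1 mouse. The scripts were tested on simulated data.

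Named genes were, per class with at least 100 cells in both libraries, the 2 highest and 2 lowest log2 ratios at 50 CPM and 30 UMIs or more, leaving out mitochondrial, ribosomal, haemoglobin, immunoglobulin, T cell receptor, sex-linked, unnamed and hepatocyte genes and genes under 10% of their level in another class, up to 3 members per direction of each list, and the prostanoid and granule genes. Other genes that are named were chosen after their values were seen. The members and the 34 gene lists were chosen with earlier results of these data known. Alternatives were another doublet, gene or class rule, resolution, scaling, filter and added CPM, equal cluster weights, and each cell weighted alike. Equal cluster weights used only clusters with at least 10 cells in both libraries of the pair. These were all clusters of neutrophils, B cells, natural killer cells and plasmacytoid dendritic cells. In monocytes they were 2 of 3, in macrophages 5 of 7, in type 2 dendritic cells 4 of 5 and in T cells 8 of 11. Values within single clusters and reclustering without 50 leading genes were added after seeing the data. Gene coordinates are GRCm38, from the annotation. A result on 1 gene is not reported here.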

Additional observations from a re-analysis of the deposited data

Results flagged for a closer look

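Cell cycle genes went opposite ways in 2 myeloid classes under the same contrast of celecoxib 30 mg/kg with thioacetamide alone. The median log2 ratio of the list was 0.687 in monocytes, where 7 of 11 measured members were at least 1.5-fold higher, and -0.900 in type 2 conventional dendritic cells, where 14 of 19 were at least 1.5-fold lower. The cycling clusters numbered 8 and 56 cells in monocytes (24.3) and 31 and 9 in type 2 dendritic cells (24.4). Within the classical monocyte cluster 14 the median was 0.289, with 2 of 7 members higher, beside 1.24% of all genes tested in it. With 1 mouse a side the difference between the classes was not tested.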

How the results depend on the processing

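Of the values that answer a comparison, 365 stayed near the main value under the other settings, 64 moved and 1 reversed. Near meant inside the 95% interval of a share ratio, or within 1.5-fold for a count of genes or a list median. A list median counted as reversed only where the main median was at least 0.58 from 0. Smaller medians could change sign and still count as near or as moved. Under the settings added after seeing the data, 46 stayed near, 10 moved and 2 reversed. The monocyte share ratio was 2.49 with doublet calls kept, 2.57 with at least 500 genes per barcode and 2.31 with cells named by marker score, which gave 0.675 for macrophages. Macrophage cluster 13.2 had a ratio of 0.789 at Leiden resolution 2. Without their 50 leading genes, the T cell clusters numbered 19 had a ratio of 3.90 and B cell cluster 6 of 0.238.

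With 1 CPM added in place of 10, the higher and lower genes numbered 154 and 219 in B cells, 296 and 310 in type 2 dendritic cells, 128 and 243 in macrophages, 184 and 389 in monocytes, 330 and 583 in natural killer cells, 367 and 468 in plasmacytoid dendritic cells and, in T cells, 110 and 128. With 50 CPM added they numbered 42 and 12 in B cells, 39 and 47 in type 2 dendritic cells, 22 and 28 in macrophages, 34 and 68 in monocytes, 47 and 19 in natural killer cells, 114 and 418 in neutrophils, 36 and 34 in plasmacytoid dendritic cells and 27 and 13 in T cells. Trimmed-mean scaling gave 641 and 425 in neutrophils, 259 and 206 in natural killer cells and 165 higher in monocytes. A minimum of 10 UMIs gave 128 lower in B cells, 320 and 572 in natural killer cells and 306 and 469 in plasmacytoid dendritic cells. Equal cluster weights gave 48 and 162 in neutrophils, 65 and 149 in monocytes, 62 lower in macrophages and 104 lower in type 2 dendritic cells. Weighting each cell alike gave 221 and 667 in monocytes, 698 lower in neutrophils, 124 higher in macrophages and 235 higher in type 2 dendritic cells.

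Equal cluster weights moved the list medians to 0.306 for secondary granule genes and -0.213 for non-classical monocyte genes. For cell cycle genes in type 2 dendritic cells the median was -0.231, with the cycling cluster 24.4 left out. In neutrophils the inflammatory list was reversed to 0.160 and Ptgs2 to 0.216. Within neutrophil cluster 2 the inflammatory median was 0.0960 and the secondary granule median 0.827. Within cluster 25 they were 0.283 and 0.285, and the interferon median was -0.181. The non-classical median was -0.352 within monocyte cluster 14 and -0.0612 within cluster 20, where the cell cycle median was 0.0250 and the class II median, below 0 over all monocytes, was 0.0843. The cytotoxic median, above 0 over all T cells, was -0.389 within T cell cluster 10.4. The genes lower in every class numbered 1 with doublets kept, 1 with at least 500 genes, 5 with 1 CPM and 0 with 50 CPM added, and those higher numbered 2 with 50 CPM added. Where the construction of an alternative does not show it, the cause was not tested.

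Natural killer cluster 22 and B cell cluster 6 had no match at resolution 0.5, and monocyte cluster 24.3 none without its leading genes. No paired analysis was possible because each treatment had 1 library, which also left no replicate to leave out. Depth limits low genes: the celecoxib library held 26626414 UMIs against 47347437.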

Other observations

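Genes of TGF-beta signalling, the pathway that drives scar formation, had 0 of 9 measured genes past the threshold upwards and 7 downwards in neutrophils, with a median of -1.01 on the log2 scale, beside -0.33 for all neutrophil genes, 28% of which were lower. Within neutrophil cluster 2, 3 of 9 were lower (median -0.42), beside 2.03% higher and 6.97% lower of all 4192 genes tested in it, and within cluster 25 1 of 7 (median -0.16). In monocytes the median was -0.18 and in macrophages -0.09. Dcn, which encodes the matrix proteoglycan decorin, had 890, 216, 557 and 983 UMIs over the whole saline, thioacetamide, celecoxib 7.5 mg/kg and celecoxib 30 mg/kg libraries. These were 36.1, 4.56, 32.6 and 36.9 CPM of library totals that differed in depth. Dcn led small clusters that met no naming rule, of 67 and 1 cells (18.0) and 0 and 7 cells (18.5) in the pair compared. The part of cell recovery in the Dcn values was not tested.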
